A study of Mus musculus with 2 samples.

Results

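Bone morphogenetic protein (BMP) signalling was described through 10 genes: the ligand genes *Bmp2*, *Bmp4* and *Bmp7*, the type I receptor genes *Bmpr1a* and *Bmpr1b*, the inhibitory gene *Smad6*, and the inhibitor of DNA binding genes *Id1*, *Id2*, *Id3* and *Id4*. Members were taken by gene symbol, and each of the 10 matched 1 of the 31053 features that were counted. Eyecups, that is retina with lens and blood, were profiled by single-cell RNA-seq at E13.5 in 1 control and 1 DKO library, each from 1 embryo. The control embryo was heterozygous for *Six3* and for *Six6* (*Six3*+/-;*Six6*+/-). The DKO embryo was *Six3*F/F;*Six6*-/-;α-Cre, so *Six6* was deleted in the germline and *Six3* only where α-Cre acts, in the peripheral retina. Central DKO retina therefore retained *Six3*, and no wild-type embryo was sequenced. Since each genotype had a single library, no test between genotypes was possible. Every 95% interval below covers counting error only, and a genotype difference cannot be told apart from a difference between these embryos, dissections or libraries.

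BMP ligands are secreted dimers that bring together type I and type II serine/threonine kinase receptors. The activated type I receptor phosphorylates SMAD1, SMAD5 and SMAD9, which enter the nucleus with SMAD4 and turn on target genes, among which the ID genes are the most widely used readout. ID proteins have a helix-loop-helix but no basic region, so they bind E proteins and keep them from pairing with proneural factors such as ATOH7 on DNA. In the eye, BMP signals are known for dorsal retinal identity, opposed by VAX genes ventrally, and for the ciliary margin, the non-neural rim of the retina.

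The regulatory sequence upstream of the genes is shown for the 3 members whose start in RefSeq had 250 bases clear of their own gene model: *Bmp4*, the dorsal ligand, *Smad6*, the feedback inhibitor, and *Id4*, the ID gene whose ratio between libraries differed most between the 4 main classes. Sequences are from RefSeq on GRCm38.p6, written 5′ to 3′ on the strand of the gene and ending just before the start of transcription. Capitals mark GGCGCC, a GC-rich element bound by SMAD1 and SMAD5, which reads the same on both strands, and the SMAD box GTCT with its reverse complement AGAC. The 2 kinds of motif did not overlap.
*Bmp4* upstream region, chr14:46390670-46390919, minus strand: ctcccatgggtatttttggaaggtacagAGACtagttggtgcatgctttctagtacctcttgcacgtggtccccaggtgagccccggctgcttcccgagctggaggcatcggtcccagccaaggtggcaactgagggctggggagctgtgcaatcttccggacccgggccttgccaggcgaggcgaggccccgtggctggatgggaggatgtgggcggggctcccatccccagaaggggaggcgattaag
*Smad6* upstream region, chr9:64022060-64022309, minus strand: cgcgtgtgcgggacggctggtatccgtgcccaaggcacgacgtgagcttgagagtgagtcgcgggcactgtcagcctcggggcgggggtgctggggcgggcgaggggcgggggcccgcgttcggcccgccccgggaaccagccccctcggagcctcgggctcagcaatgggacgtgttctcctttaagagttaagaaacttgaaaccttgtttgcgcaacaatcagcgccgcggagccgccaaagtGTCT
*Id4* upstream region, chr13:48260866-48261115, plus strand: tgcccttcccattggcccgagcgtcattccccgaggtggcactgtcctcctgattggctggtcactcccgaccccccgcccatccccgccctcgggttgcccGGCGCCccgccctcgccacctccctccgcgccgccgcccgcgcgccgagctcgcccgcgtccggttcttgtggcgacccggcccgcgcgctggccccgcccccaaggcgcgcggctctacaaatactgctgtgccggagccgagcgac
The *Bmp4* region held 1 AGAC, the *Smad6* region ended in 1 GTCT, and the *Id4* region held 1 GGCGCC and no SMAD box. Among 32851 windows of the same length in the mouse genome, 9.59% held GGCGCC and 82.9% held GTCT or AGAC. These are matches of letters, not binding sites. In all, 7 of the 10 members had a window. The *Id2* window held 1 GGCGCC and 1 AGAC and the *Id3* window 1 GTCT and 1 AGAC, but both lay inside a longer annotated transcript of the gene.

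Of the deposited cells, 9822 control and 12146 DKO cells passed the filters, with medians of 7620 and 5879 UMIs. Clusters were named from marker genes as naïve-like, neurogenic-like, ganglion-like and margin-like, and smaller classes. Naïve-like cells are cycling multipotent progenitors, neurogenic-like cells are progenitors that express *Atoh7*, and margin-like cells hold ciliary margin and pigment epithelium markers. The margin-like class held 568 control and 891 DKO cells. At a finer clustering (resolution 1), the cluster so named, led by *Pmel* and *Dct*, held 68 and 540 cells. The make-up of the margin-like class may thus differ between the libraries, and its part in the ratios was not tested. Clusters 6, led by *Fabp7* and *Tagln*, and 11, led by *Aldh1a3* and *Gja1*, met no naming rule and are given by number. At resolution 1, a cluster led by *Lor* and *Tagln* held 444 control and 302 DKO cells. Those led by *Fabp7* and *Sox21* held 5 control and 516 DKO cells, and 1 control and 486 DKO cells. Cluster 6 may therefore hold unlike cells in the libraries, and the part of this in its ratios was not tested. It held 448 control and 807 DKO cells. With libraries merged without integration, a cluster led by *Fabp7* and *Vwc2* held 1 control and 1142 DKO cells. Some of these DKO cells thus lay outside cluster 6, and the naïve-like class may also differ in make-up. The part of this in the naïve-like ratios was not tested. *Six6* had 381 CPM (UMIs per 1000000 UMIs of the class) in control and 46.4 CPM in DKO naïve-like cells. Of the retinal clusters, 13 held 50 cells or more in both libraries, and *Six6* was lower in DKO in 13 of them. *Six3* had 318 and 265 CPM in the same class. The conditional deletion removes exon 1, and the 3′ tags lie outside it, so *Six3* counts measure how much transcript is left and not the deletion itself. The study took reduced mRNA of both *Six3* and *Six6* as the mark of deficient cells. For its lists of differing genes, it compared control cells with DKO cells called Cre-positive from reads of the Cre vector. That grouping could not be rebuilt from these counts, and the *Six3*-low groups below are not the same cells. Hemoglobin genes took 0.496% of UMIs in control and 0.339% in DKO naïve-like cells.

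The 3 ligand genes were sparse, and in the control library their levels were highest in margin-like cells. The interval overlapped that of the next class for *Bmp4* (cluster 6) and *Bmp7* (cluster 11), but not for *Bmp2* (cluster 11). *Bmp4* had 105 UMIs in control and 117 UMIs in DKO margin-like cells, which is 19.0 CPM (95% interval, 15.5 to 23.0) and 15.4 CPM (12.8 to 18.5). In naïve-like cells it had 82 and 38 UMIs, or 2.88 and 1.75 CPM, and in ganglion-like cells 1 UMI in each library. The libraries overlapped within counting error in margin-like cells, while naïve-like cells had less in the DKO library (log2 ratio of DKO over control, -0.71, interval -1.31 to -0.14). That difference depended on how cells were clustered: it was -0.041 with all genes as clustering features and 0.39 with libraries merged without integration. Cluster 6 showed the widest gap for *Bmp4*, with 46 UMIs and 13.49 CPM in control and 21 UMIs and 3.94 CPM in DKO. Cluster 11 differed in the other direction, with 10.7 and 16.1 CPM.

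*Bmp7*, which encodes a ligand that can pair with BMP2 or BMP4, had more transcript in DKO than in control in each of the classes below. In margin-like cells it had 99 UMIs or 17.9 CPM (14.5 to 21.8) in control and 333 UMIs or 44.0 CPM (39.4 to 48.9) in DKO. The log2 ratio was 1.30 (0.97 to 1.64), and the intervals of the 2 levels did not overlap. In naïve-like cells 28 control UMIs in 27 cells stood against 110 DKO UMIs in 100 cells, 0.98 and 5.08 CPM, with a log2 ratio of 2.37 (1.76 to 3.02). No naïve-like cell held more than 3 *Bmp7* UMIs, so the count was spread over many cells. Each naïve-like cluster showed it, with log2 ratios of 2.36 in cluster 0, 2.43 in cluster 3 and 2.74 in cluster 10. Cluster 11 had 11.95 and 32.3 CPM, and lens-like cells had 9.90 and 23.4 CPM. With the libraries merged without integration, only 38 control cells were named margin-like, and there the ratio turned to -1.09. At resolution 1, where 68 control and 540 DKO cells were named margin-like, the ratio was smaller than 1.30.

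*Bmp2*, a ligand closely related to *Bmp4*, had 127 UMIs or 22.9 CPM in control and 217 UMIs or 28.6 CPM in DKO margin-like cells, a log2 ratio of 0.32 with an interval that reached 0. Naïve-like cells had 2.14 and 2.54 CPM, and ganglion-like cells had 0 and 3 UMIs. Cluster 6 had more in DKO, with 11 and 44 UMIs (log2 ratio 1.36, interval 0.38 to 2.46), and cluster 11 less, with 70 and 38 UMIs (-0.75, interval -1.36 to -0.16). The highest level of *Bmp2* in the series was outside the retina. DKO macrophage-like cells had 155 UMIs, 217 CPM, in 33 of 161 cells, and control macrophage-like cells had 2 UMIs in 1 of 55 cells. One DKO cell held 20 of these UMIs.

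**Figure D1:**
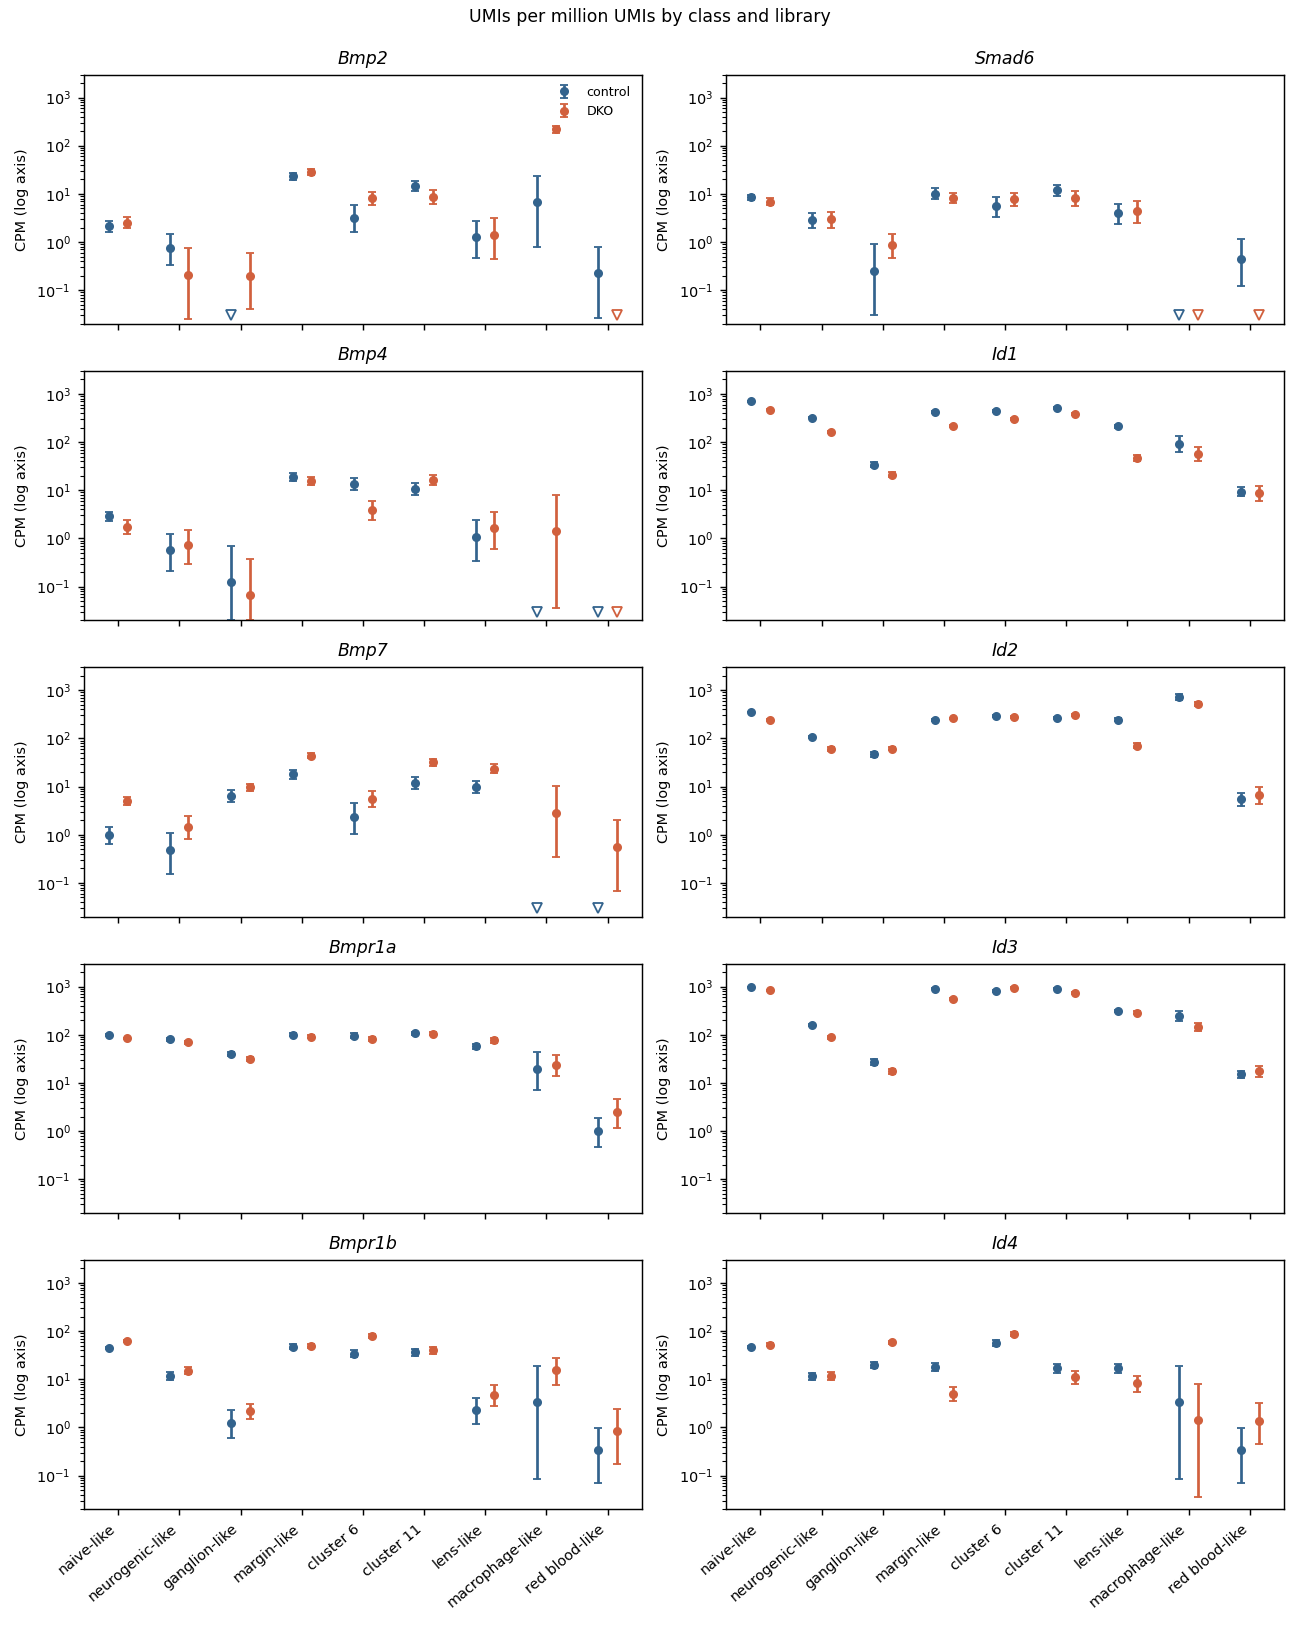
Level of each member by class in CPM on a log axis, control in blue and DKO in orange, with exact Poisson 95% intervals; open triangles at the foot mark 0 UMIs, and intervals below the axis are cut. In the retinal classes shown the ligands peak in margin-like cells or cluster 11, with 217 CPM of *Bmp2* in DKO macrophage-like cells above them, and *Id1* and *Id3* are high in progenitors and low in ganglion-like cells.

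The type I receptor genes behaved differently from each other. *Bmpr1a*, the more broadly expressed of the pair, had 2835 control and 1813 DKO UMIs in naïve-like cells, or 99.5 CPM (95.8 to 103) and 83.7 CPM (79.9 to 87.6). Its control levels in cluster 11 (106 CPM), margin-like (101 CPM), naïve-like (99.5 CPM) and cluster 6 cells (96.5 CPM) could not be separated from neighbour to neighbour by counting error, and neurogenic-like cells followed with 80.6 CPM. Ganglion-like cells had 40.3 and 31.4 CPM. The DKO library was lower in 12 of 13 retinal clusters, 6 of them with an interval below 0, and no interval lay above 0. The log2 ratios were small, from -0.50 in cluster 18 to 0.12 in cluster 9.

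*Bmpr1b* was highest in progenitors and the margin. It had 1263 control and 1339 DKO UMIs in naïve-like cells, 44.3 CPM (41.9 to 46.8) and 61.8 CPM (58.6 to 65.2), but 1.24 and 2.21 CPM in ganglion-like cells. Among 8 retinal clusters with at least 50 UMIs, the DKO library was higher in 8, and 4 of these had an interval above 0. The widest gap was in cluster 6, with 34.3 CPM in control and 80.2 CPM in DKO (log2 ratio 1.22, interval 0.93 to 1.53). Cells of that cluster may be unlike between the libraries, as given above. Margin-like cells had 47.9 and 49.2 CPM, which differed by less than counting error.

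*Smad6* encodes an inhibitory SMAD that binds type I receptors and is itself switched on by BMP signals. It had 243 control and 148 DKO UMIs in naïve-like cells, or 8.52 and 6.83 CPM, with a log2 ratio of -0.32 (-0.62 to -0.02). Margin-like cells had 10.1 and 8.32 CPM, and ganglion-like cells had 2 and 13 UMIs. In none of 6 retinal clusters with at least 50 UMIs did the interval of the ratio exclude 0, although 5 of them had less in DKO.

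The ID genes had unlike patterns across cell classes. *Id1* and *Id3* were high in progenitors and margin cells and low in neurons. *Id3* had 972 CPM (960 to 983) in control and 839 CPM (827 to 851) in DKO naïve-like cells, 159 and 89.0 CPM in neurogenic-like cells, and 27.1 and 17.5 CPM in ganglion-like cells. *Id1* had 695 and 474 CPM, 322 and 165 CPM, and 33.9 and 21.1 CPM in the same 3 classes. *Id2* had 353 and 241 CPM in naïve-like cells, but its highest level was in macrophage-like cells, with 733 and 525 CPM. *Id2* was also high in the forebrain-type neuron-like cluster, at 233 CPM, a cluster that held 589 DKO cells and 0 control cells. *Id4* was highest in cluster 6, at 55.7 CPM in control and 85.6 CPM in DKO. Red blood-like cells, which should lack these genes, had 9.36 and 8.83 CPM of *Id1* and 15.2 and 17.4 CPM of *Id3*. The *Id3* level of DKO ganglion-like cells lay near this background, and their *Id1* level and both control levels lay above it.

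Between the libraries, *Id1* was lower in DKO in 13 of 13 retinal clusters, in 12 of them with an interval below 0, and the log2 ratio ranged from -1.75 in cluster 18 to -0.43 in cluster 11. In naïve-like cells 19803 control UMIs and 10264 DKO UMIs gave a log2 ratio of -0.55 (-0.59 to -0.52). In neurogenic-like cells 3387 and 1558 UMIs gave -0.97 (-1.06 to -0.88), and in margin-like cells 2314 and 1667 UMIs gave -0.93 (-1.02 to -0.83). *Id3* was lower in DKO in 11 of 13 retinal clusters, with the exception of clusters 6 and 20, and had log2 ratios of -0.21 in naïve-like, -0.83 in neurogenic-like and -0.70 in margin-like cells. *Id2* was lower in naïve-like (-0.55) and neurogenic-like cells (-0.82), and higher in ganglion-like (0.39, interval 0.22 to 0.57) and margin-like cells (0.12, interval 0.02 to 0.22).

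*Id4* differed in opposite directions between classes. Margin-like cells had 101 control and 38 DKO UMIs, 18.2 CPM (14.9 to 22.2) and 5.02 CPM (3.55 to 6.88), with a log2 ratio of -1.86 (-2.44 to -1.31). Ganglion-like cells had 160 and 883 UMIs, 19.9 CPM (16.9 to 23.2) and 59.1 CPM (55.2 to 63.1), with a log2 ratio of 1.57 (1.33 to 1.82). *Six3* had 737 and 708 CPM in ganglion-like cells. At resolution 1, an unnamed cluster led by *Mmd2* and *Rgs4*, nearest to ganglion cells by markers, held 149 control and 628 DKO cells. The ganglion-like class may thus differ in make-up between the libraries, and the part of this in its ratios was not tested. Naïve-like cells (47.0 and 52.7 CPM) and neurogenic-like cells (11.5 and 11.8 CPM) differed by less than 1.5-fold between the libraries. With the libraries merged without integration the margin-like ratio turned to 1.57, on 38 control cells, and the directions were no longer opposite.

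**Figure D2:**
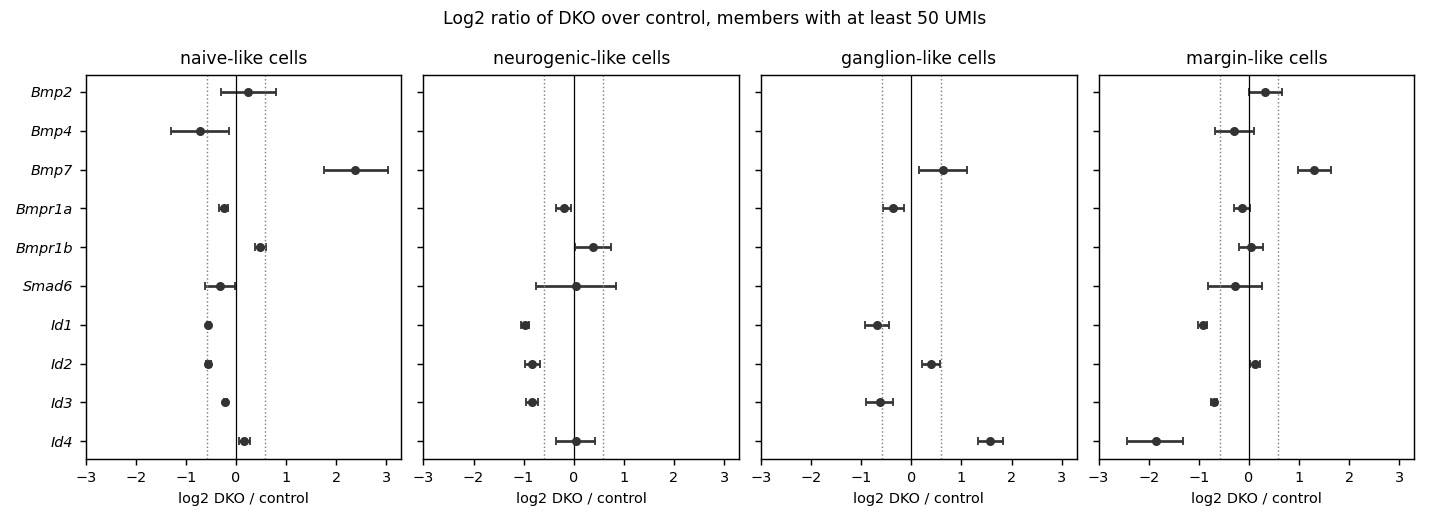
Log2 ratio of DKO over control for members with at least 50 UMIs over both libraries, in 4 classes; bars are 95% intervals from the binomial split of UMIs and dotted lines mark 1.5-fold. *Id1* lies left of 0 in each class, from -0.97 to -0.55, and *Id4* lies at -1.86 in margin-like and 1.57 in ganglion-like cells.

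A change of more than 1.5-fold was used as a fixed rule of size among genes with at least 50 UMIs over both libraries. In naïve-like cells 10 of 10 members passed this minimum, and 1 was past 1.5-fold up (*Bmp7*) and 1 down (*Bmp4*), beside 5.74% and 4.16% of 12220 genes. In neurogenic-like cells 7 passed it, and 0 were up and 3 down (*Id1*, *Id2* and *Id3*), beside 7.99% and 5.35% of all genes. In ganglion-like cells 6 passed it, and 2 were up (*Bmp7* and *Id4*) and 2 down (*Id1* and *Id3*), beside 9.57% and 3.95%. In margin-like cells 10 passed it, and 1 was up (*Bmp7*) and 3 down (*Id1*, *Id3* and *Id4*), beside 7.46% and 4.87%. The median log2 ratio of the members that passed was -0.23, -0.20, 0.02 and -0.21 in these 4 classes, and that of all genes was 0.01, 0.02, 0.05 and 0.01. The median over the 4 ID genes was -0.38 (-0.41 to -0.34), -0.83 (-0.96 to -0.70), -0.12 (-0.34 to 0.10) and -0.81 (-0.89 to -0.73).

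The lens, which derives from surface ectoderm and lies outside the α-Cre domain, also differed. The germline *Six6* deletion covers the DKO lens too. Lens-like cells had 19.0 CPM of *Six6* in control and 5.23 CPM in DKO, and 163 and 256 CPM of *Six3*. Macrophage-like cells had 56.4 and 12.6 CPM of *Six6*, and red blood-like cells 4.68 and 2.21 CPM. Whether the *Six6* UMIs of lens-like cells come from lens cells or from RNA of other cells was not tested. *Id1* had 1003 control and 168 DKO UMIs in lens-like cells, 211 and 46.3 CPM, and *Id2* had 1172 and 258 UMIs, 247 and 71.1 CPM. *Id3* had 309 and 289 CPM. Crystallin genes took 15.01% of lens-like UMIs in control and 5.46% in DKO, and their part in the result was not tested. In cluster 15, the lens cluster with more cells, *Id1* had 221 and 35.8 CPM, and in cluster 17, led by gamma crystallins, it had 150 and 121 CPM. Lens-like cells had 17.1 and 8.26 CPM of *Id4* and 57.1 and 77.4 CPM of *Bmpr1a*, and *Bmp2*, *Bmp4*, *Bmpr1b* and *Smad6* each had at most 19 UMIs in a library.

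The smaller classes held few UMIs of the members. Amacrine- or horizontal-like cells had 94 and 31 UMIs of *Id1*, 128 and 37.9 CPM, and photoreceptor-like cells had 62 and 36 UMIs. In both classes each ligand had at most 6 UMIs in a library. Macrophage-like cells had 28 and 41 UMIs of *Id1* and 75 and 104 UMIs of *Id3*. Cluster 2, a cluster of shallow cells with medians of 1040 and 982 UMIs that met no naming rule, had 531 and 299.8 CPM of *Id1* and 744 and 533 CPM of *Id3*. *Bmp7* had 4 and 17 UMIs there, with a log2 ratio of 1.97 (0.35 to 3.998).

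To ask how the members lie along the dorsal to ventral axis, naïve-like cells with a UMI of *Tbx5*, *Tbx3* or *Tbx2* and none of *Vax2* or *Vax1* were called dorsal-marked, and cells with the reverse ventral-marked. There were 1139 control and 711 DKO dorsal-marked cells, and 487 and 454 ventral-marked cells. Many cells had neither (1057 and 1228), so these are cells in which a marker was captured. *Tbx2*, *Tbx5* and *Vax1* themselves differed between the libraries in naïve-like cells. Marked cells therefore need not hold the same position in both libraries. *Bmpr1b* stood out as ventral. In control it had 24.8 CPM in dorsal-marked and 85.1 CPM in ventral-marked cells, and in DKO 24.1 and 117 CPM. The log2 ratio of dorsal over ventral was -1.78 (-2.003 to -1.56) in control and -2.27 (-2.54 to -2.01) in DKO. *Bmp4* was dorsal, with 38 and 7 UMIs in control and 17 and 3 UMIs in DKO. Scaled to the total UMIs of each group, its log2 ratio of dorsal over ventral was 1.34 (0.16 to 2.75) in control and 2.13 (0.34 to 4.54) in DKO. *Id1* had 758 and 541 CPM in control and 610 and 324 CPM in DKO. *Id4* was dorsal in control, with 58.4 and 21.2 CPM, and level in DKO, with 49.8 and 56.5 CPM. By the same marks, dorsal-marked cells made up 36.4% of control and 12.8% of DKO cluster 6 cells. Ventral-marked cells made up 10.7% and 13.6% of them. The part of this in the *Bmp4* and *Bmpr1b* ratios of cluster 6 was not tested.

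In margin-like cells the same split gave ligand levels whose dorsal to ventral order differed between libraries. *Vax1*, 1 of the marks, had 13 control and 49 DKO UMIs in this class. Whether the marked cells match in position between the libraries was not tested. *Bmp2* had 20.1 CPM in dorsal-marked and 7.55 CPM in ventral-marked control cells (40 and 8 UMIs), but 19.4 and 45.7 CPM in DKO (50 and 60 UMIs). *Bmp7* had 17.5 and 16.0 CPM in control, and 28.7 and 76.9 CPM in DKO. *Bmp4* remained higher in dorsal-marked cells of both libraries, with 27.6 and 6.60 CPM in control and 23.3 and 9.90 CPM in DKO. *Id3* had 1020 and 927 CPM in control, and 806 and 362 CPM in DKO. In ventral-marked margin-like cells, *Id1* had 365 CPM in control and 126 CPM in DKO. These values rest on 197 and 259 dorsal-marked cells, and on 100 and 134 ventral-marked cells.

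**Figure D3:**
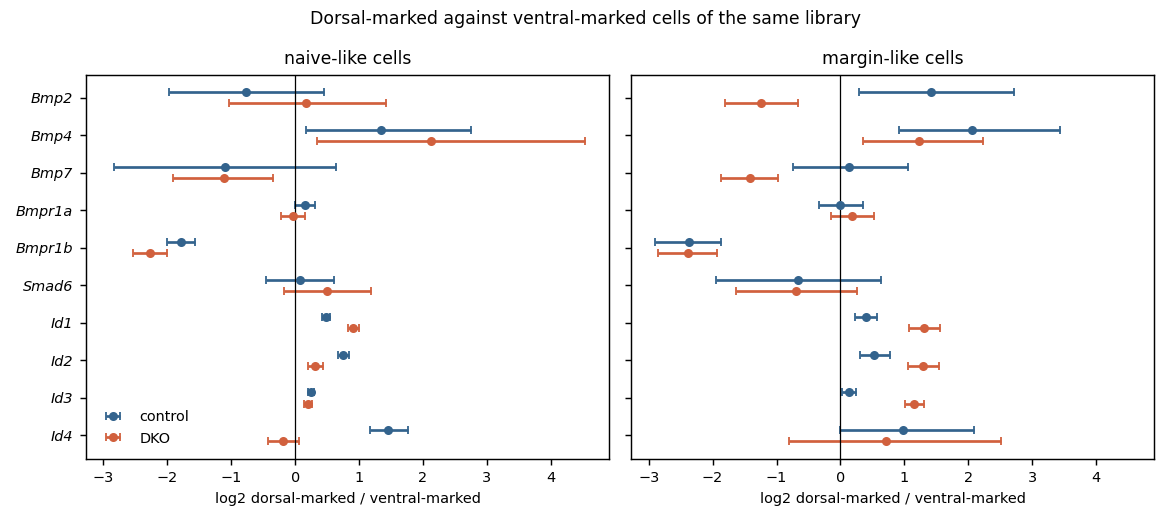
Log2 ratio of dorsal-marked over ventral-marked cells of the same library for each member in naïve-like and margin-like cells, control in blue and DKO in orange, with 95% intervals. *Bmpr1b* lies left of 0 in each panel, and *Bmp2* and *Bmp7* of margin-like cells lie left of 0 in DKO alone.

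Because *Six3* was deleted in part of the DKO retina, the retinal DKO cells were clustered again without control cells. Within a class, cells of subclusters whose *Six3* CPM lay below 50% of the class's control value are named *Six3*-low. These held 1112 of 2479 DKO naïve-like cells (44.9%) and 592 of 891 margin-like cells (66.4%), but 56 neurogenic-like and 22 ganglion-like cells. In *Six3*-low naïve-like cells *Id1* had 365 CPM, against 594 CPM in the other DKO naïve-like cells and 695 CPM in control. *Id3* went the other way, with 954 CPM in *Six3*-low cells, 711 CPM in the other DKO cells and 972 CPM in control. *Bmpr1b* had 78.8, 43.0 and 44.3 CPM in these 3 groups, and *Six3* itself had 124, 422 and 318 CPM. *Bmp4* had 7 UMIs or 0.62 CPM in *Six3*-low and 31 UMIs or 3.02 CPM in the other DKO cells. *Id2* had 237 and 245 CPM, which differed by less than counting error. In margin-like cells the groups did differ in *Id2*, with 314 CPM in *Six3*-low, 146 CPM in the other DKO cells and 239 CPM in control, so the small ratio of the whole class joins opposite directions. In naïve-like cells *Bmp7* had 5.89 CPM in *Six3*-low and 4.18 CPM in the other DKO cells, with overlapping intervals. Both lay above the 0.98 CPM of control. Margin-like cells had 48.6, 34.2 and 17.9 CPM of *Bmp7* in these 3 groups. There the log2 ratio of *Six3*-low over other DKO cells was 0.51 (0.15 to 0.88). The make-up of these groups also differed, with ventral-marked cells making up 29% of *Six3*-low, 9.58% of other DKO and 16.4% of control naïve-like cells, and dorsal-marked cells 16.5%, 38.6% and 38.3%. Its part in these values was not tested. The ID median of neurogenic-like cells turned to 0.75 in the 56 *Six3*-low cells, in which *Id3* had 294 CPM. These cells were chosen by subcluster, and their own *Six3* level was 226 CPM against 311 CPM in control, above the 50% limit.

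**Figure D4:**
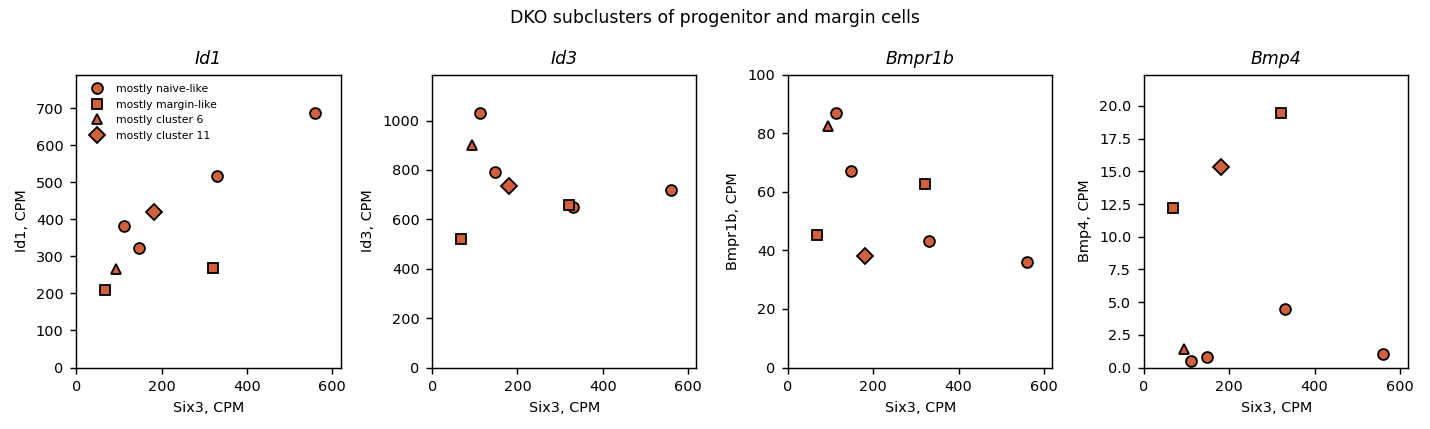
Levels of *Id1*, *Id3*, *Bmpr1b* and *Bmp4* against *Six3* in DKO subclusters of naïve-like, margin-like, cluster 6 and cluster 11 cells, in CPM on linear axes; each point is a subcluster of the DKO library and its shape gives the class of most of its cells. *Id1* is 688 CPM in the naïve-like subcluster highest in *Six3* and 323 to 383 CPM in the naïve-like subclusters lowest in it.

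Among the DKO subclusters of mostly ganglion-like cells, *Id4* was high in subcluster 10 (122 CPM) and subcluster 11 (104 CPM) and lower in subclusters 2 and 14 (13.47 and 15.1 CPM), while *Bmp7* was highest in subcluster 10. Subcluster 10 was singled out after its values had been seen, as the one of these subclusters with the highest *Id4*. Its higher *Id4* and the smaller *Id4* ratio without it follow from this choice. Its 410 ganglion-like cells had 129 CPM of *Id4* and 27.2 CPM of *Bmp7*, against 42.1 and 5.57 CPM in the other 1713 DKO ganglion-like cells. *Id2* had 100.02 and 51.7 CPM. Without this subcluster, the log2 ratio in ganglion-like cells was 1.08 for *Id4*, 0.15 for *Id2* and -0.19 for *Bmp7*. Genes that led it over the other DKO ganglion-like cells included *Cartpt*, *Dab1*, *Robo1* and the dorsal gene *Tbx5*, with 75.6 and 17.9 CPM. The 14 forebrain-type neuron markers summed to 1239 CPM in it, to 628 CPM in the other DKO ganglion-like cells and to 190 CPM in control. The 12 ganglion cell markers summed to 17346, 19993 and 18717 CPM. The part of these markers in the *Id4* difference was not tested.

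*Id1* was lower in DKO within each cell cycle phase of naïve-like cells. In S phase *Id1* had 724 and 493 CPM, and in G2/M 659 and 458 CPM. *Id3* had 959 and 816 CPM in S and 975 and 869 CPM in G2/M. In G1, which held 278 control and 93 DKO cells, *Id1* had 666 and 448 CPM and *Id2* had 365 and 151 CPM. The share of naïve-like cells in G2/M was 33.1% in control and 43.4% in DKO.

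For shares of cells with a UMI, cells were thinned to 2000 UMIs each. *Id1* was then seen in 69.6% (67.9 to 71.2) of 2946 control and 53.6% (51.6 to 55.6) of 2447 DKO naïve-like cells, and in 93.6% and 83.5% without thinning. In red blood-like cells, with median depths of 8455 and 6343 UMIs against 8608.5 and 7603 in naïve-like cells, the thinned share was 1.51% and 2.04%. *Bmp7* was seen in 2.66% (1.499 to 4.36) of control and 7.22% (5.59 to 9.14) of DKO margin-like cells, and in 0 of 1063 control and 0.19% of 540 DKO red blood-like cells. *Id4* was seen in 3.32% of control and 8.01% of DKO ganglion-like cells, and in 4.26% and 0.69% of margin-like cells. Shares did not follow levels throughout: the margin-like shares were 31.1% and 29.7% for *Id2* and 15.8% and 17.2% for *Bmpr1a*, the reverse of their levels, with overlapping intervals.

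The remaining genes of the BMP pathway were followed in a list of 98 genes, of which 66 had at least 50 UMIs in naïve-like cells. Of these, 14 were past 1.5-fold up and 4 down in DKO, beside 5.74% and 4.16% of all genes, with a median log2 ratio of -0.03. Among 14 extracellular antagonists and modulators, 5 were up and 1 down. *Nog*, encoding the ligand trap noggin, had 18 and 85 UMIs (0.63 and 3.92 CPM), *Grem1*, encoding the trap gremlin, had 3.19 and 7.57 CPM, and *Vwc2*, encoding brorin, had 5.05 and 38.2 CPM. *Nbl1* had 57 and 14 UMIs, and *Dand5* had 0.67 and 1.71 CPM. In margin-like cells 4 of 15 antagonists and modulators were up and 4 down, beside 7.46% and 4.87% of all genes. There *Fst*, encoding follistatin, had 45.0 and 126 CPM, and *Smoc2* had 3 and 101 UMIs, a log2 ratio of 4.62 (3.03 to 6.92). *Fstl4* had 30.2 and 73.5 CPM. *Chrdl1*, encoding an antagonist of BMP4, had 13.7 and 6.73 CPM, and *Htra1*, encoding a secreted protease, had 8.85 and 4.36 CPM. In neurogenic-like cells *Vwc2* had 17 and 129 UMIs, *Fstl5* 30 and 57 UMIs and *Nbl1* 81 and 27 UMIs.

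Of 13 genes that the list counts as responding to BMP, 5 were up and 2 down in naïve-like cells, beside the same 5.74% and 4.16% of all genes. Whether each responds to BMP in these cells was not tested. The 2 down were *Fzd5*, a WNT receptor gene, with 166 and 97.5 CPM, and *Tbx2*, a dorsal T-box gene, with 39.1 and 19.8 CPM. *Msx1*, a homeobox target, had 1 control and 63 DKO UMIs, a log2 ratio of 6.37 (3.84 to 11.7), and *Msx2* had 22 and 38 UMIs. *Tbx5* had 3.79 and 7.57 CPM and *Hhip* 6.21 and 13.1 CPM. *Aldh1a1*, a dorsal retinaldehyde dehydrogenase and the highest of this list in control, had 529 and 917 CPM. Of 15 SMAD proteins and regulators, 0 passed 1.5-fold, and the highest, *Zeb2*, had 383 and 309 CPM. The highest of the other ligands, *Gdf11*, had 21.8 and 16.4 CPM, and of the other receptors, *Acvr2b* had 81.2 and 68.8 CPM. Among ventral genes, *Vax1* had 37 and 153 UMIs (1.30 and 7.06 CPM), and *Ephb2* had 91.1 and 102 CPM. In margin-like cells *Cyp1b1* had 26.9 and 8.18 CPM and *Vax1* 13 and 49 UMIs, and *Efnb1* had 10.3 and 24.9 CPM in neurogenic-like and 11.4 and 25.6 CPM in ganglion-like cells. *Fstl1* had 83.7 and 81.6 CPM. E proteins, the binding partners of ID proteins, stayed within 1.5-fold in naïve-like cells, where *Tcf4* had 212 and 239 CPM. In ganglion-like cells *Tcf3* had 48.0 and 26.6 CPM and *Tcf4* 259 and 161 CPM, both past 1.5-fold down. *Efnb2*, a dorsal ephrin, had 62.5 and 148 CPM and *Hey1* 23.1 and 10.2 CPM there, with 8 and 43 UMIs of *Dand5* and 19 and 73 UMIs of *Grem1*.

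Across 20 control clusters of at least 50 cells, the members were compared on log2(CPM + 10), which is a description over clusters of 1 library. *Id1* and *Id3* were most alike (Pearson r = 0.94), and *Id4* was less like them (0.68 and 0.69). *Bmp2* and *Bmp4* had r = 0.80, whereas *Bmp7* had r = 0.12 with *Id1*. Among 9325 genes with at least 500 control UMIs, those most like *Id1* were *Ccnd1*, *Sox2* and *Siva1* (r = 0.98, 0.98 and 0.97), and those most like *Id3* were *Hes1*, *Gulp1* and *Siva1* (0.97, 0.96 and 0.95). *Bmpr1b* was most like *Col2a1*, *Fbn2* and *Fst* (each 0.97), *Bmpr1a* like *Tead1*, *Txndc12* and *Cstf3*, *Id2* like *Lrrfip1*, *Asrgl1* and *Impdh2*, and *Id4* like *Chpt1*, *Fam167a* and *Cntnap2* (0.89, 0.86 and 0.86).

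The members lie in the mouse genome (mm10) at chr2:133552159-133562885 (*Bmp2*), chr14:46383520-46390669 (*Bmp4*), chr2:172868012-172940321 (*Bmp7*), chr14:34410734-34503341 (*Bmpr1a*) and chr3:141837136-142169425 (*Bmpr1b*). *Smad6* lies at chr9:63953076-64022059, *Id1* at chr2:152736251-152737410, *Id2* at chr12:25093799-25097140, *Id3* at chr4:136143497-136145755 and *Id4* at chr13:48261228-48266026. Each is annotated as protein-coding.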

How the data were processed

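Single-cell RNA-seq counts from eyecups of 1 control and 1 DKO embryo were used. The authors aligned reads to mm10 with Cell Ranger 3.1.0 and deposited integer UMI counts per gene and cell without normalization. The study's limits on cells were applied (over 200 and below 6000 genes, below 20% mitochondrial UMIs). Libraries were integrated and clustered with Seurat 5.3.0 in R 4.3.3 (2000 variable features, 20 dimensions, resolution 0.5), leaving out 855 features: the members, the pathway lists, *Six3*, *Six6*, *Xist*, *Tsix*, hemoglobin and Y-linked genes, so that these did not shape the clusters. The naming rule for clusters was set after the clusters had been seen: at least 75% of a class's markers above the other cells, with a median log2 difference of at least 0.5, 3 detected markers, top 10 genes in which foreign markers did not outnumber its own, and at most 20% doublets. The class names are rebuilt and need not match the study's clusters. Scrublet (scanpy 1.11.5) scored doublets at 1 threshold, 0.225, for both libraries, and 300 control and 329 DKO cells were called. They were kept, except in an alternative. The libraries shared 22 barcodes.

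UMIs were summed per class and library and divided by the class total (CPM). Levels carry exact Poisson intervals, log2 ratios intervals from the exact binomial split, and shares exact binomial (Clopper-Pearson) intervals, computed with scipy 1.17.1, numpy 2.4.6 and pandas 2.3.3 under Python 3.11.15 and checked on simulated data. Library totals were 85589515 control and 85173276 DKO UMIs. A count of 0 was held against a floor of 3 UMIs. Cells thinned to 2000 UMIs were given a phase from the cell cycle genes in Seurat. Figures were drawn with matplotlib 3.10.9. The rule named all 10 members in each class with at least 50 cells in both libraries, and members with few UMIs in the smaller classes are given by ranges or left out. Pathway genes were named past 2-fold with at least 50 UMIs, at most 8 a class, with the highest gene of each list, and the 3 genes most like a member by Pearson r. A gene that met this rule is not reported here. Members and lists were chosen with earlier results of these data known. No paired analysis was possible because there was 1 library of each genotype. Cre has no feature in the counts. The study's bulk RNA-seq and in situ hybridization were not analysed here.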

Additional observations from a re-analysis of the deposited data

Results flagged for a closer look

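*Id4* differed in opposite directions in ganglion-like and margin-like cells. Its log2 ratio of DKO over control was 1.57 in ganglion-like cells and -1.86 in margin-like cells, a gap of 3.43 on the log2 scale. With 1 library of each genotype, the difference between classes was not tested. The make-up of both classes may differ between the libraries, as given above. With the libraries merged without integration the margin-like ratio turned to 1.57, on 38 control cells, and both classes then had more in DKO. Among the other members, none was past 1.5-fold up in 1 of the naïve-like, neurogenic-like, ganglion-like or margin-like classes and past 1.5-fold down in another.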

How the results depend on the processing

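Leaving out doublets, keeping cells with at least 1000 genes, and totals without hemoglobin and mitochondrial genes left the 7 summary results within their intervals or counts. With *Six3*-low DKO cells only, *Bmp4* in naïve-like cells had a log2 ratio of -2.23, the ID median was -0.30 in naïve-like, 0.75 in neurogenic-like and -0.90 in margin-like cells, and 4 members passed 1.5-fold in naïve-like cells. In the same cells the ratio turned for *Id2* (0.61) and *Id3* (0.89) in neurogenic-like cells, of which there were 56 (with 226 CPM of *Six3* against 311 CPM in control), and for *Id1* (0.68) and *Id3* (0.78) in ganglion-like cells, of which there were 22. The ID median of ganglion-like cells could not be computed there, because *Id4* had 0 UMIs. With all genes as clustering features, *Bmp4* had -0.041, the ID median was -0.31 in naïve-like and -0.69 in margin-like cells, and 1 member passed 1.5-fold. With libraries merged without integration, *Bmp4* in naïve-like cells had 0.39, *Bmp7* in margin-like cells -1.09 and *Id4* there 1.57, with 38 control cells named margin-like, and the ID median was -0.22 in margin-like, -0.62 in ganglion-like and -1.003 in neurogenic-like cells. At resolution 0.3 the ID median was -0.29 in naïve-like and -0.71 in margin-like cells. At resolution 1 it was -0.46 and -0.69, and *Bmp7* in margin-like cells had 0.26, with 68 control cells. A pseudocount of 10 CPM gave -0.13 for *Bmp4*, 0.95 for *Bmp7* and 0 members past 1.5-fold. Thinned cells gave an ID median of -1.02 in neurogenic-like cells and 1 member, and a 2-fold rule also gave 1 member. Without DKO subcluster 10, an alternative chosen after seeing the data, *Bmp7* in ganglion-like cells had -0.19. The causes of these moves were not tested. Depth limits *Bmp2* and *Bmp4* in neurogenic-like cells, where each had at most 8 UMIs in a library and a difference was not detectable at this depth. *Bmp7* had 5 and 14 UMIs there (log2 ratio 1.64, interval 0.08 to 3.46).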
